A study of Mus musculus with 6 samples.

Results

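Sprouty (Spry1, Spry2, Spry3 and Spry4) and Spred (Spred1, Spred2 and Spred3) proteins and the Ras GTPase-activating proteins Nf1, Rasa1 and Rasal1 were compared between normal livers and liver tumors with a Ha-ras mutation. Probes were chosen by name, taking every non-control probe whose gene name on the array, or the current symbol of its transcript accession, was 1 of these 10 genes. This gave 12 of the 55681 probes, for 10 of the 34741 gene names on the array. A probe was tested when it stood well above background in all 3 samples of either group. This held for 7 of the 12 probes, from 6 genes, and 4 genes had no tested probe. All samples were total RNA from livers of male C3H/HeN mice aged 74 to 75 weeks, control F2 offspring from work on arsenic exposure in gestation, kept on standard diet and tap water. One group was 3 normal livers and the other was 3 macroscopic tumors with a Ha-ras mutation, each hybridised to 1 SurePrint G3 Mouse array with 1 dye. The sources used here do not say whether normal livers and tumors came from the same or separate mice, so that p-values measure only the spread between these samples, which may be technical. The number of arrays limits the precision.

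The 3 normal livers lay on 1 slide and the 3 tumors on another, so that slide and tissue cannot be told apart. Pairs of arrays correlated at Pearson's r of 0.989 to 0.992 among normal livers, 0.980 to 0.990 among tumors and 0.914 to 0.950 between the groups, across tested probes, which are not independent replicates. The local background was 42 to 45 intensity units on the arrays of normal livers and 22 to 23 on those of tumors, and normal liver 1 had the lowest 75th percentile of signal (124, against 170 to 183 on the other arrays). For the labelled tissue, all 7 hepatocyte markers found on the array entered the test, and their summed expression value was 7648 to 8571 in normal livers and 7732 to 8077 in tumors. On the log2 scale Alb differed by -0.06 and Hnf4a by 0.16, and 1 of the 7 was called, Apoa1, which was higher in the tumors (0.90, adjusted p = 0.00564).

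Ras proteins switch on the ERK cascade when bound to GTP and switch it off when the GTP is hydrolysed. GTPase-activating proteins such as neurofibromin, encoded by Nf1, speed up that hydrolysis. Sprouty and Spred proteins are inhibitors of signalling from growth factor receptors to ERK, Spred1 recruits neurofibromin to the membrane, and several of their genes are themselves induced by ERK signalling. Oncogenic Ras mutations make Ras less responsive to GTPase-activating proteins.

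Promoter sequences are shown for the 3 called genes whose promoter was in the RefSeq table (GRCm38.p6, from 250 bases before to 50 bases after the start), and for Nf1 as a gene that was not called. Capitals mark CG dinucleotides, the sites of DNA methylation, which was not analysed here.
Spry1, chr3:37639697-37639996, plus strand: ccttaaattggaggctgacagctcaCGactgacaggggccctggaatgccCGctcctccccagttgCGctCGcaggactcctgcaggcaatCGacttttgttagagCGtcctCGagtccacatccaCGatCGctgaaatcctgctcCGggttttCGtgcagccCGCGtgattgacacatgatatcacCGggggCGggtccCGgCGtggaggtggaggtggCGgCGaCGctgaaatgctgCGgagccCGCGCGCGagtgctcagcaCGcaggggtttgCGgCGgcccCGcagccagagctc
Spred1, chr2:117120821-117121120, plus strand: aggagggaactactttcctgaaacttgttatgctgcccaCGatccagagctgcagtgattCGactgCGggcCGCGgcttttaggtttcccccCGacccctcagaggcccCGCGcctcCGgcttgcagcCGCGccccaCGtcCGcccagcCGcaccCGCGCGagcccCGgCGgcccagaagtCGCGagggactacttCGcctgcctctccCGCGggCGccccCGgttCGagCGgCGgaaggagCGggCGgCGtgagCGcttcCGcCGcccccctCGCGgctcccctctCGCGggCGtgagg
Spred2, chr11:19924192-19924491, plus strand: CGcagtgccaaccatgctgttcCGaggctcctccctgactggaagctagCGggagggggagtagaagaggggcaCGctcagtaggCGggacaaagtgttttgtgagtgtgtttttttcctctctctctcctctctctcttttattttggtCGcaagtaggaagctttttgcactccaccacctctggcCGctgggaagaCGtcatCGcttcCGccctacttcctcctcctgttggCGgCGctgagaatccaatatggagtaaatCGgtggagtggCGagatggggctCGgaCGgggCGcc
Nf1, chr11:79339642-79339941, plus strand: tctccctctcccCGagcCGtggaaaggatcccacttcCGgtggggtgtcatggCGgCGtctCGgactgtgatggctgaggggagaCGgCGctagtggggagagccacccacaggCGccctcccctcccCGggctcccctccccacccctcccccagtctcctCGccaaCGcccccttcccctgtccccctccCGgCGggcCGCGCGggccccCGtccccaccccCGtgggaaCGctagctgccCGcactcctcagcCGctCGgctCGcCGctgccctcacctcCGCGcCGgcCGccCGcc
The table held 7 of the 10 genes, without Spry3, Spry4 and Rasal1. The Spry1 window held 29 CG dinucleotides, Spred1 40, Spred2 17 and Nf1 30, against a median of 7 over all 32851 windows of the table, and the 7 genes ranged from 8 in Spred3 to 40. GC content was 64.3% in Spry1, 72.3% in Spred1, 57.0% in Spred2 and 75.7% in Nf1, against a median of 52.7%. All 7 windows were above the median in CG dinucleotides, called or not. On either strand, the ETS motif CCGGAAGT was found in 1 of the 7 windows, that of Nf1, and in 3.89% of all windows. The AP-1 motif TGANTCA (7.81% of all windows), the CRE motif TGACGTCA (1.79%) and the E-box CACGTG (7.15%) were in none of the 7. None of these motifs contains another, and a missing match says only that these letters are not in the window.

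Spry1, Spred1, Spred2 and Rasal1 were up-regulated in the liver tumors, and none of the 10 genes was called lower. The changes were 3.38-fold for Spry1, 2.12-fold for Spred1 and 1.70-fold for Spred2. For Rasal1 the change was at least 10.5-fold by the bound described below, which is not a strict minimum. Nf1 and Rasa1 did not pass the test. Thus 4 of the 6 tested genes were called at an adjusted p under 0.05 (limma), against 34.2% of all 18552 tested genes, and all 4 were higher, against 13.1% of all tested genes. Every tumor lay above every normal liver for the same 4 genes, against 18.3% of all tested genes, while groups did not overlap in either direction for 51.8%. The median log2 fold change was 0.92 over the 6 tested genes, also with Rasal1 at its bound, and -0.13 over all tested genes. A gene that was dim in normal liver could enter the test only through the tumors, as Rasal1 did.

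**Figure D1:**
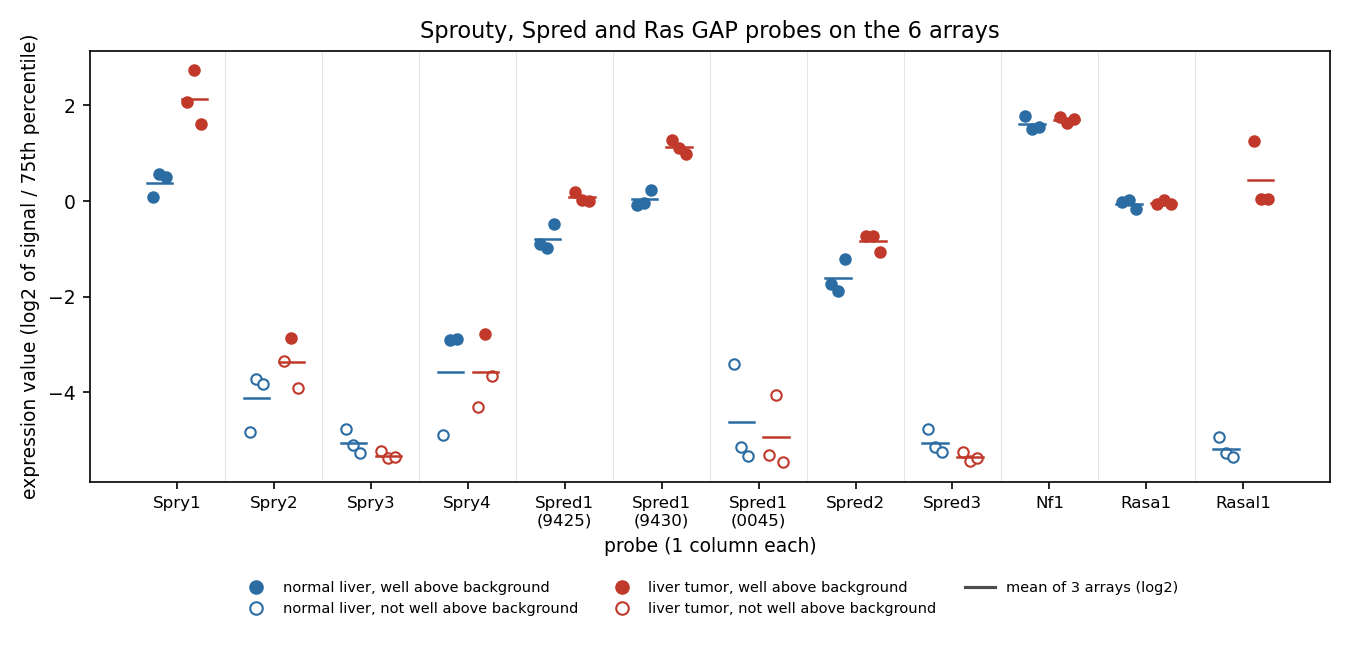
Expression value of each of the 12 probes (x axis, with the last 4 digits of the probe for Spred1) on the 6 arrays, on a log2 scale relative to the 75th percentile of the array (y axis). Filled points were well above background, open points were not, and lines are means of 3 arrays; tumors stand above normal livers for Spry1, 2 probes of Spred1, Spred2 and Rasal1.

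Among the Sprouty genes, which encode feedback inhibitors of receptor tyrosine kinase signalling, only Spry1 was well above background on all 6 arrays. Spry1 (probe A_55_P1952235, transcript NM_011896) had an expression value (signal divided by the array's 75th percentile) of 1.07, 1.47 and 1.41 in normal livers 1 to 3. It was 4.18, 6.65 and 3.06 in tumors 1 to 3. The groups were apart, and the tumors differed among themselves by up to 2.17-fold, with tumor 2 the highest. The mean rose from 1.32 ± 0.22 to 4.63 ± 1.84 (SD, n = 3 each). The log2 fold change was 1.76 with a standard error of 0.29 and a limma adjusted p of 0.00690, and the 95% interval of the fold was 2.07 to 5.51. In these bulk samples, more cells of a type and more RNA per cell cannot be told apart.

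The other Sprouty genes were dim. Spry2 was well above background only in tumor 2, with expression values of 0.0353, 0.0762 and 0.0710 in normal livers and 0.0990, 0.137 and 0.0663 in tumors, and the groups overlapped. Spry4 was well above background in normal livers 2 and 3 and in tumor 2, with values of 0.0335, 0.133 and 0.135 in normal livers and 0.0505, 0.146 and 0.0792 in tumors. Spry3 never stood well above background, with values between 0.0240 and 0.0365. None of these 3 genes entered the test. With all probes tested and no filter, the log2 fold change was 0.74 for Spry2 (adjusted p = 0.269), -0.01 for Spry4 (adjusted p = 0.993) and -0.27 for Spry3 (adjusted p = 0.331).

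Spred1 and Spred2 encode membrane-associated inhibitors of Ras to ERK signalling, and both were higher in the tumors. The Spred1 probe with the highest signal (A_55_P2079430, transcript ENSMUST00000028829) had expression values of 0.947, 0.977 and 1.17 in normal livers and 2.43, 2.15 and 1.98 in tumors. The lowest tumor was above the highest normal liver. The mean rose from 1.03 ± 0.12 to 2.19 ± 0.22 (SD, n = 3 each), a log2 fold change of 1.08 with a standard error of 0.14 and a limma adjusted p of 0.00297. The 95% interval of the fold was 1.69 to 2.67. A second Spred1 probe (A_55_P2079425, transcript NM_033524) read 0.538, 0.508 and 0.716 in normal livers and 1.14, 1.01 and 1.01 in tumors. Its log2 fold change was 0.86 with a standard error of 0.16 (adjusted p = 0.00960), the same direction as the first probe. The remaining probe (A_55_P2090045, transcript ENSMUST00000110901) stood at background on all 6 arrays.

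Spred2 (probe A_55_P2025840, transcript NM_033523) had the smallest change of the called genes. Its expression values were 0.302, 0.273 and 0.432 in normal livers and 0.606, 0.60 and 0.481 in tumors. The groups did not overlap, but normal liver 3 and tumor 3 lay close to each other. The mean rose from 0.336 ± 0.085 to 0.562 ± 0.071 (SD, n = 3 each), a log2 fold change of 0.77 with a standard error of 0.20 and a limma adjusted p of 0.0302. This call was lost with normexp background correction, where the log2 fold change was 0.30 (adjusted p = 0.0934). It was also lost when all probes were tested with no filter (adjusted p = 0.0952), and without normal liver 1 (adjusted p = 0.0874), normal liver 2 (0.0916), tumor 1 (0.0763) or tumor 2 (0.0861). Spred3 never stood well above background, with values between 0.0230 and 0.0366, and its log2 fold change with no filter was -0.30 (adjusted p = 0.301).

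Rasal1, a Ras GTPase-activating protein of the GAP1 family, had the largest change. Its probe (A_51_P348433, transcript NM_013832) was not well above background on any of the 3 arrays of normal liver, where the values were 0.0328, 0.0260 and 0.0246, and was well above background on all 3 arrays of tumors, with 2.40, 1.02 and 1.03. Tumor 1 was more than 2-fold above the other tumors, whose values nearly coincided. The tumor mean was 1.48 ± 0.79 (SD, n = 3). By a bound that holds only for this scaling and floor, the tumors were at least 10.5-fold higher in Rasal1, and at least 7.89-fold without tumor 1. The limma adjusted p of 2.34e-04 belongs to the fitted change, which uses the dim signals of normal liver, and not to this bound. The bound sets the mean log2 value of the tumors against the lowest signal well above background on each array of normal liver, or the probe's own signal where higher. That floor is lenient, since a probe can read above it without being well above background. The probe of Des read 0.217, 0.223 and 0.193 in normal livers and was well above background in only 1 of them. Normal livers had the higher local background, and its part in the result was not tested. With normexp correction, which adds an offset of 50 to all signals, the fitted log2 fold change was 2.09 (adjusted p = 6.39e-04). This is below the log2 bound of 3.39.

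Nf1 and Rasa1, the GTPase-activating proteins expressed on all arrays of both groups, stayed close to their values in normal liver. Nf1 (probe A_55_P2075941) read 3.45, 2.85 and 2.94 in normal livers and 3.4, 3.1 and 3.27 in tumors. The groups overlapped, with means of 3.08 ± 0.324 and 3.26 ± 0.155 (SD, n = 3 each). Its log2 fold change was 0.08 with a 95% interval of -0.20 to 0.37 (adjusted p = 0.629). Rasa1 (probe A_55_P1968778) read 0.985, 1.01 and 0.888 in normal livers and 0.958, 1.01 and 0.957 in tumors, with means of 0.961 ± 0.065 and 0.975 ± 0.029 (SD, n = 3 each). Its log2 fold change was 0.02 with a 95% interval of -0.23 to 0.28 (adjusted p = 0.892). The intervals leave room for changes of either sign, and a p above the threshold does not show that the values did not differ. In the exact two-sided permutation test over the 6 arrays, whose smallest possible p is 0.1, p was 0.5 for Nf1 and 0.9 for Rasa1, and 0.1 for each of the 4 called genes.

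**Figure D2:**
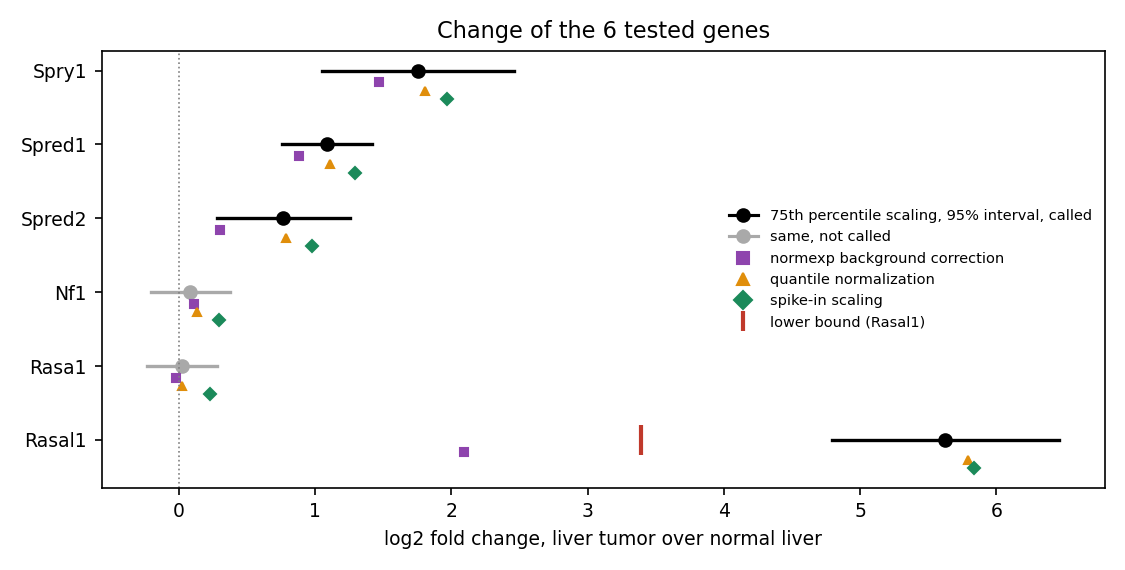
Log2 fold change of the 6 tested genes (x axis, tumor over normal liver) with the 95% interval of the limma fit, beside the values under 3 other ways of correcting or scaling the arrays; the red bar is the lower bound of Rasal1. Spry1, Spred1, Spred2 and Rasal1 are right of 0 under all 4, and Rasa1 lies at -0.02 with normexp correction.

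The study judged a gene changed at a ratio of means of at least 2, with an expression value above 1.0 in either group. Its shortlist also asked for a p under 0.05, an inverse methylation change at the promoter and a PubMed hit for cancer. The criteria applied here were the ratio, a mean expression value above 1.0 in either group and a p under 0.05 in the methods' t-test. The study's statistics section names the paired form, a table note gives no pairing, and the labels do not say what would pair the samples beyond a shared number. Only tested probes were put to these criteria. In the paired form, by replicate number, Spred1 was the only 1 of the 6 tested genes to meet them, as did 1601 of the 24879 tested probes. In the unpaired form, Spry1 and Rasal1 met the criteria too, as did 2038 tested probes. After Benjamini-Hochberg adjustment, no probe was left in the paired form, where 7414 probes had an unadjusted p under 0.05, and the adjusted p was 0.138 for Spred1, 0.207 for Spry1, 0.209 for Rasal1 and 0.255 for Spred2. In the unpaired form, Spred1 was left (adjusted p = 0.0219), with adjusted p = 0.0996 for Spry1, 0.0776 for Spred2 and 0.0956 for Rasal1. Under all other alternatives that tested them, Spry1, Spred1 and Rasal1 were called.

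**Figure D3:**
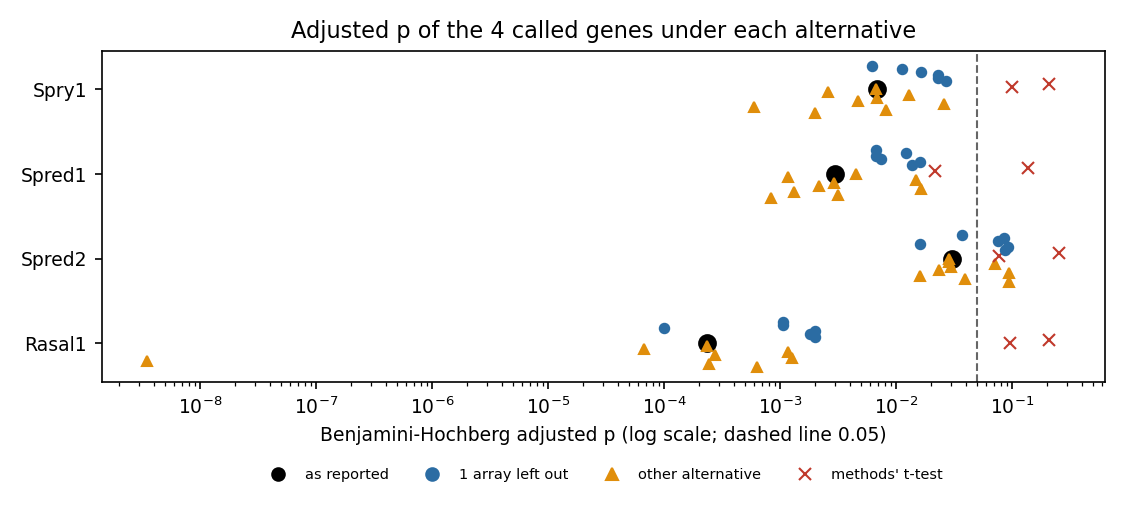
Benjamini-Hochberg adjusted p (x axis, log scale) of the 4 called genes as reported and under each alternative, with the threshold of 0.05 as a dashed line. Spry1, Spred1 and Rasal1 cross the line only with the methods' t-test (paired, and for Spry1 and Rasal1 also unpaired), while Spred2 crosses it also with normexp correction, no filter, the replicate block and 4 of the 6 arrays left out in turn.

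Genes acting with or beside these inhibitors were described from 5 lists. For comparison, 13.1% of all tested genes were called higher and 34.2% in either direction, and 5124 of the 24879 tested probes were called lower. Of 5 tested genes among other Ras GTPase-activating proteins, 2 were higher, 0 lower and 3 not called, with a median log2 fold change of 0.00. The higher ones were Dab2ip (1.10, adjusted p = 0.00266) and Rasa3 (1.06, adjusted p = 0.00497). Rasa3 belongs to the same GAP1 family as Rasal1, as do Rasa4 and Rasa2. Rasa4 was not called (0.005, adjusted p = 0.985), and Rasa2 was too dim to be tested. Dab2ip is a Ras GTPase-activating protein that also takes part in TNF signalling. Of 13 tested partners of Sprouty and Spred proteins, such as the ubiquitin ligase Cbl, the adaptor Grb2 and the phosphatase Ptpn11, none was called by limma at the adjusted threshold, and the median was -0.07. With quantile normalization 1 of them was called, Ptpn11, as higher.

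Among other inhibitors of the ERK pathway, 1 of 7 tested genes was higher, 1 lower and 5 not called (median -0.03), and these counts depended on the processing. They were 3 higher and 1 lower with normexp correction, and 2 higher and 0 lower with spike-in scaling, where Erf, a repressor acting on ETS sites, was added (0.72 as reported, adjusted p = 0.0696, and 0.92, adjusted p = 0.0149, with spike-in scaling). Normexp correction added Erf and Lrig1. The higher one was Errfi1, a feedback inhibitor of the EGF receptor (0.51, adjusted p = 0.0435). The lower one was Dok2, an adaptor of blood cells that binds Rasa1 (-0.92, adjusted p = 0.0254), whose call was lost with spike-in scaling (adjusted p = 0.0852). Of 13 tested Ras proteins and exchange factors, which load Ras with GTP, 2 were higher, 3 lower and 8 not called (median 0.11). Over all tested genes, 13.1% were called higher and 34.2% in either direction, so these counts are not read as a result about the list. Rasgrp2, an exchange factor acting mainly on Rap, was higher (3.11, adjusted p = 3.67e-04), and Mras was lower (-1.50, adjusted p = 0.00749). The exchange factor Sos1 was called lower (adjusted p = 0.0159), but it was well above background in only 1 of 3 tumors, so that its fitted -1.17 is not a measured size, and it was -0.37 with normexp correction (adjusted p = 0.0481). Hras, named because the tumors carry its mutation, differed by 0.28 (adjusted p = 0.0896) and was called higher with normexp correction (0.38, adjusted p = 0.0411) and quantile normalization (0.39, adjusted p = 0.0317).

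Genes induced by ERK signalling, a class to which Spry1 also belongs, were mostly higher. Of 13 tested genes, 8 were higher, 1 lower and 4 not called (median 1.21, also with 3 genes at their bounds). The 3 genes with bounds, Dusp5 and Fos among them, could enter the test only through the tumors. Of all tested genes, 13.1% were called higher, but the list was chosen with earlier results of these data known, so the comparison is only descriptive. With spike-in scaling 10 were higher and 0 lower. Egr1, an immediate early transcription factor, had a log2 fold change of 4.63 with a standard error of 0.58 (adjusted p = 0.00289). Its values were 0.555, 1.17 and 2.10 in normal livers and 36.4, 40.5 and 14.1 in tumors. By the same kind of bound as for Rasal1, the ERK phosphatase gene Dusp5 was at least 3.62-fold higher and Fos at least 3.68-fold higher. Both were not well above background in the 3 normal livers. With normexp correction, the fitted log2 fold change was 0.99 for Dusp5 and 0.87 for Fos. These are below the log2 bounds of 1.85 and 1.88, so the bounds are not strict minima. ERK signalling itself was not measured.

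**Figure D4:**
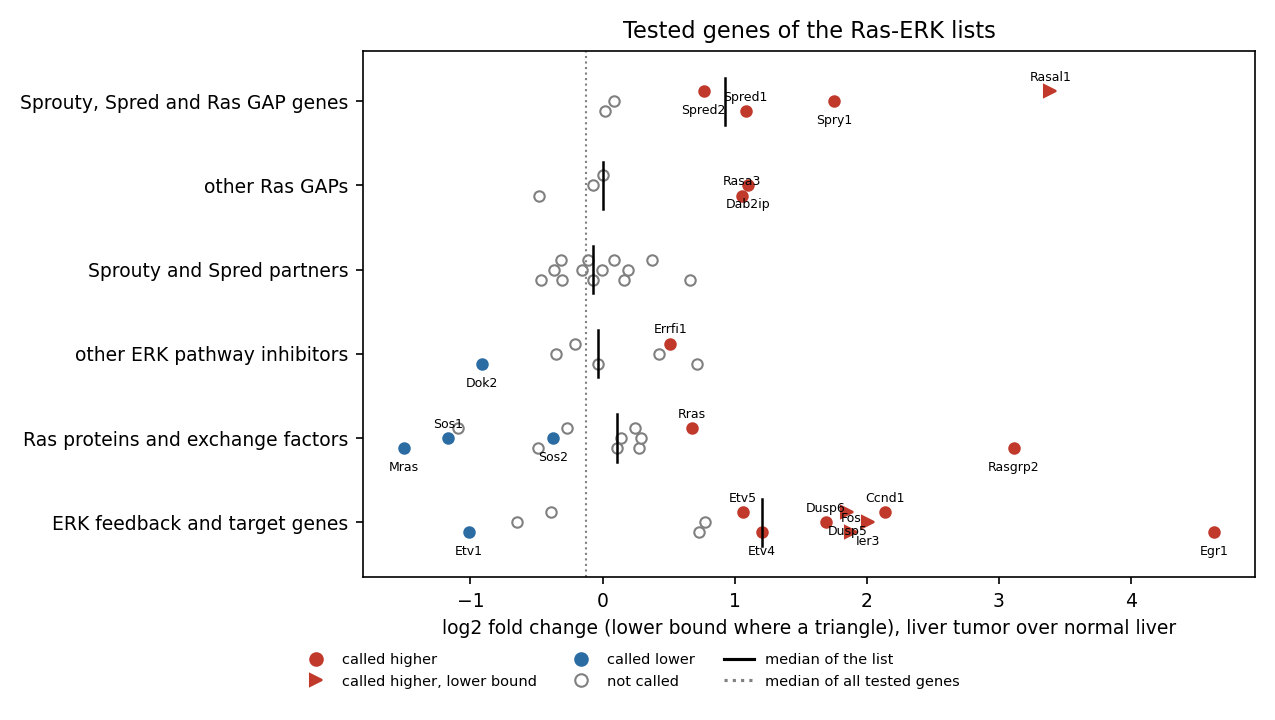
Log2 fold change (x axis, tumor over normal liver) of the tested Sprouty, Spred and Ras GAP genes and of the 5 related lists (rows), with called genes filled and named. Medians of the lists are black bars, from -0.07 for Sprouty and Spred partners to 1.21 for ERK feedback and target genes, and the dotted line is the median of all tested genes at -0.13, with Sos1, dim in 2 of the 3 tumors, drawn at its fitted value.

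Markers of other cells also differed between the groups. All 5 proliferation markers were higher in the tumors, against 13.1% of all tested genes. Their summed expression value was 0.910 to 1.42 in normal livers and 10.4 to 17.4 in tumors. Top2a, Ccnb1 and Cdk1 entered the test only through the tumors, being well above background in 0, 0 and 1 of the normal livers. Of 7 macrophage markers, 5 were lower and 0 higher (3 lower with spike-in scaling), with sums of 100.2 to 172 in normal livers and 51.2 to 84.4 in tumors. Stellate cell and fibroblast markers had 2 of 8 higher and 3 lower, with a median log2 fold change of 0.41. Their sum went from 86.8 to 104 in normal livers to 29.5 to 49.3 in tumors through Dcn, and without Dcn it was 7.25 to 11.3 against 11.6 to 16.7. Endothelial markers had 1 of 9 higher and 2 lower (0 lower with spike-in scaling), with sums of 56.0 to 67.9 against 47.1 to 52.2. Of 4 tested lymphocyte markers only Cd4 was called, as higher. Their sum was 65.6 to 69.5 against 141 to 244 with Cd4 and 6.85 to 8.60 against 6.87 to 8.94 without it, and Cd8a never stood well above background. None of the 4 tested cholangiocyte markers and none of the 3 tested neutrophil markers was called. The part of these cells in the changes of Spry1, Spred1, Spred2 and Rasal1 was not tested.

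Among the genes whose log2 values over the 6 arrays were most like those of Rasal1 were Mast2 (Pearson's r = 0.9993) and Lama5 (0.9988), out of 16470 genes well above background on all arrays. For Spry1 they were Pakap (0.996), Exoc6b (0.992) and 2510009E07Rik (0.992). These values are descriptions over 6 arrays in 2 groups, and r above 0.95 was found for 1025 genes with Rasal1 and for 199 with Spry1. The values of Rasal1 in normal livers were not well above background.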

How the data were processed

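Each of 6 Agilent 1-dye arrays measured total RNA of 1 sample (3 normal livers, 3 tumors), and groups and replicate numbers came from the sample labels. The authors deposited the Feature Extraction output of each array (version 10.7.3.1 per the file headers, 12.0.3.1 in the submitters' processing notes), with a processed signal intensity after background subtraction that holds a surrogate where no signal exceeds background. They also deposited a table of linear ratios of that signal to the 75th percentile of each array, used as an alternative. Set against processed signal over that percentile, 94.3 to 98.1% of its spots lay within 0.006, which fixes scale and direction and shows no centring of genes. Its column medians were 0.11, 0.11 and 0.09 for the normal livers and 0.10, 0.09 and 0.08 for the tumors.

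Processed signals were divided by the 75th percentile of all spots of their array and taken to log2. Control and outlier spots were left out and spots of a probe were averaged. Probes standing well above background in all 3 samples of either group (24879) entered lmFit and eBayes of limma 3.58.1 under R 4.3.3. The tests were two-sided, with Benjamini-Hochberg adjustment over all these probes and a threshold of 0.05. For each gene, the tested probe with the highest mean log2 signal was used. Intervals are the 95% intervals of the fit. Names came from RefSeq annotation (GRCm38.p6) through the accession for 27235 probes, the symbol for 3581 and a synonym for 565, and 24300 kept the name of the array design. Python 3.11.15, pandas 2.3.3, numpy 2.4.6 and matplotlib 3.10.9 were used for tables and figures. The fit was tested on simulated data.

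The 10 genes and the lists were chosen with earlier results of these data known. The genes named were all 10 genes, up to 3 called genes with the largest change from each pathway list, and the 3 genes most like Rasal1 and Spry1, of which 1 is not reported here. Hras, Erf, Lrig1, Ptpn11, Apoa1, Dcn, Cd4, Cdk1, Stab2 and Kdr were added outside this rule, after their values were seen. Of the marker lists, Alb, Hnf4a and genes dim in a group were named. Alternatives were normexp correction, quantile normalization, spike-in scaling, no filter, a stricter filter, the deposited ratios, the replicate block, a trend in eBayes, the mean of a gene's probes, the methods' t-test in both forms and leaving out each array.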

Additional observations from a re-analysis of the deposited data

How the results depend on the processing

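The number of the 10 genes called, 4 as reported, stayed at 4 with spike-in scaling, quantile normalization, the deposited ratios, a trend in eBayes and the mean of a gene's probes, and was 3 with normexp correction, no filter and the stricter filter, which did not test Rasal1. It was 3 to 4 with 1 array left out, 1 with the methods' t-test unpaired and 0 with it paired. The 8232 probes called became 5133 with spike-in scaling, 4674 without a filter, 5259 with the methods' t-test unpaired, 0 with it paired and 4956 to 7169 with 1 array left out, the lowest without normal liver 2. The share of called probes that were higher was 37.8% as reported, 45.4% after quantile normalization and 64.4% under spike-in scaling, which moved the median of tested probes from -0.13 to 0.08 (log2). The log2 fold change of Rasa1 changed sign to -0.019 with normexp correction, to -0.034 without normal liver 3 and to -0.0027 without tumor 2, with a range of -0.034 to 0.059 when 1 array was left out, and was not called in any of them. The causes were not tested.

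With the replicate number as a block, 7015 probes and 3 of the 10 genes were called, and Spred2 was lost (adjusted p = 0.0713), with no other change of call among the 10 genes. Dok2 was lost too (adjusted p = 0.0586). Same-numbered samples of the 2 groups deviated from their group means with correlations of 0.051 to 0.13, and 4 of the 6 arrays correlated best with their own number. With so few samples, these values cannot decide whether the samples were paired. The fit as reported used no pairing because the labels give only a shared number. Signal over background limits Spry2, Spry3, Spry4, Spred3 and, in normal liver, Rasal1, for which no level can be given.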
